A study of Homo sapiens with 45 samples.

Results

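Gene expression was compared between SKOV3 cells transfected with a miR-205 precursor and SKOV3 cells transfected with a negative-control precursor (miR-NC). SKOV3 is a human ovarian carcinoma cell line known for its amplified ERBB2 gene. The comparison uses the 3 arrays titled for miR-205 and the 3 titled for miR-NC, 6 of the 45 arrays of the series, with all probe sets. Cells of both groups received 33 nM of a commercial Pre-miR precursor with Lipofectamine 2000, grew in RPMI 1640 with serum, and were collected after 48 h. The series also holds SKOV3 cells with miR-203a or miR-429 and the lines HEY and PC3 under the same 4 precursors, and its title concerns differences between cancer cell types in miRNA-driven mesenchymal-to-epithelial change. Separate cultures are not stated for the arrays of 1 group, and the p-values therefore cover the spread among arrays, which may be technical.

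MicroRNAs (miRNAs) guide Argonaute proteins to transcripts that pair with a short stretch near the miRNA's 5′ end, the seed, and such transcripts are translated less and decay faster. miR-205 is known from skin, breast and prostate epithelium, where it is abundant in basal cells. It represses ZEB1 and ZEB2, the repressors of the E-cadherin gene CDH1, together with the miR-200 family, to which miR-429 belongs.

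The mature sequences of the transfected miRNAs are shown because the seeds define which transcripts each can pair with, with the seed (bases 2 to 8) in capitals. They are from RefSeq on GRCh38.p14. The labels name miR-205, miR-203a and miR-429 without an arm. Both arms of miR-205 are therefore shown, and which of them acted was not tested. All 4 names looked up matched an entry, and no 2 of the 4 share a seed. The miR-205 arms lie at chr1:209432166-209432187 (5p) and chr1:209432203-209432223 (3p), miR-203a-3p at chr14:104117469-104117490 and miR-429 at chr1:1169055-1169076, each on the plus strand.
hsa-miR-205-5p: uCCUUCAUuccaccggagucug
hsa-miR-205-3p: gAUUUCAGuggagugaaguuc
hsa-miR-203a-3p: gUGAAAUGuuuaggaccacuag
hsa-miR-429: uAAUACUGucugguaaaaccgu

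The values are log2 intensities, and a difference of 1 is a 2-fold difference. The 6 arrays carried the genes that mark SKOV3. ERBB2 averaged 11.60 with miR-205 and 11.34 with miR-NC, against 6.83 in HEY and 6.37 in PC3 cells with miR-NC, and the simple-epithelial keratin genes KRT8 and KRT18 lay above 12 in all 6 arrays. Markers of blood cells were below the median of all values, 4.88, in 4 of 5 cases, and those of endothelial cells in 6 of 6, in both groups. PTPRC, which marks leukocytes, averaged 2.83 in both. Arrays correlated across probe sets at 0.995 to 0.996 within miR-205, at 0.994 to 0.995 within miR-NC and at 0.984 to 0.987 between the groups. The GAPDH and ACTB probe sets of all transcript positions had group means of 13.70 to 13.81 with miR-205 and 13.65 to 13.89 with miR-NC, among the brightest on the array, where differences may be compressed, so they give no check of RNA integrity between the SKOV3 groups. The GAPDH probe set at the 5′ end stood at 12.28 with miR-205 and 8.37 with miR-NC in HEY, and at 8.70 with miR-205 and 5.04 with miR-NC in PC3. In the same order, the GAPDH 3′ means were 13.76 and 12.28 in HEY, and 12.14 and 10.32 in PC3. For ACTB the 5′ means were 7.46 and 6.24 in HEY, and 7.45 and 4.72 in PC3. The ACTB 3′ means were 13.70 and 13.73 in HEY, and 13.76 and 13.41 in PC3. The part of RNA integrity in these gaps between transcript ends was not tested. The B. subtilis control probe sets averaged 5.10, 6.85 and 7.27 in the SKOV3 miR-205 arrays, against 6.25, 6.01 and 6.43 in the SKOV3 miR-NC arrays. Their means were 3.01 with miR-205 and 2.75 with miR-NC in HEY, and 2.74 and 2.80 in PC3. The 9 arrays labelled untransfected go against their labels in line-marking genes, are uneven within a group and were left out. Fits with all 45 arrays, given below, take them in. Such fits keep every difference between the transfected groups and change only its SE and p-value. The 6 prostate markers were mixed in PC3 with miR-NC against SKOV3 with miR-NC: STEAP1 averaged 11.03 and 5.47, KLK2 5.09 and 4.24 and TMPRSS2 5.72 and 5.25, while HOXB13 averaged 6.56 and 6.70, KLK3 4.30 and 6.87 and FOLH1 2.49 and 3.99. The PC3 arrays also carried WT1 (9.61), LUM (9.17) and PDGFRA (9.18). Of the endothelial markers in HEY with miR-NC, CDH5 averaged 9.89, TEK 6.70, PECAM1 6.49 and KDR 5.99. VWF (3.97) and CLDN5 (4.46) were below the median of all values there. HEY with miR-NC also carried the ovarian markers PAX8 (10.42) and WT1 (10.31).

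Each gene was represented by its brightest probe set. The 15030 genes tested had a mean above the median of all values (4.88) in at least 1 of the 12 transfected groups of the 3 lines. That median stands for background in this report and is no measure of detection. A tested gene can therefore lie below it in both SKOV3 groups. A gene was called when its Benjamini-Hochberg adjusted p from limma was below 0.05. Of all genes tested, 32.3% were called with miR-205 against miR-NC, 3128 higher (20.8%) and 1733 lower (11.5%). Differences of at least 2-fold were called for 785 genes (5.22%), 574 of them higher and 211 lower. The 3 miR-205 arrays lay wholly above or wholly below the 3 miR-NC arrays for 53.8% of the genes. Rises made up 64.3% of the called genes, 51.9% after quantile normalization and 70.3% after subtracting array medians, and the median difference of all genes was 0.028. Levels are per culture, so a change in the share of cells that express a gene and a change of its RNA per cell cannot be told apart.

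**Figure D1:**
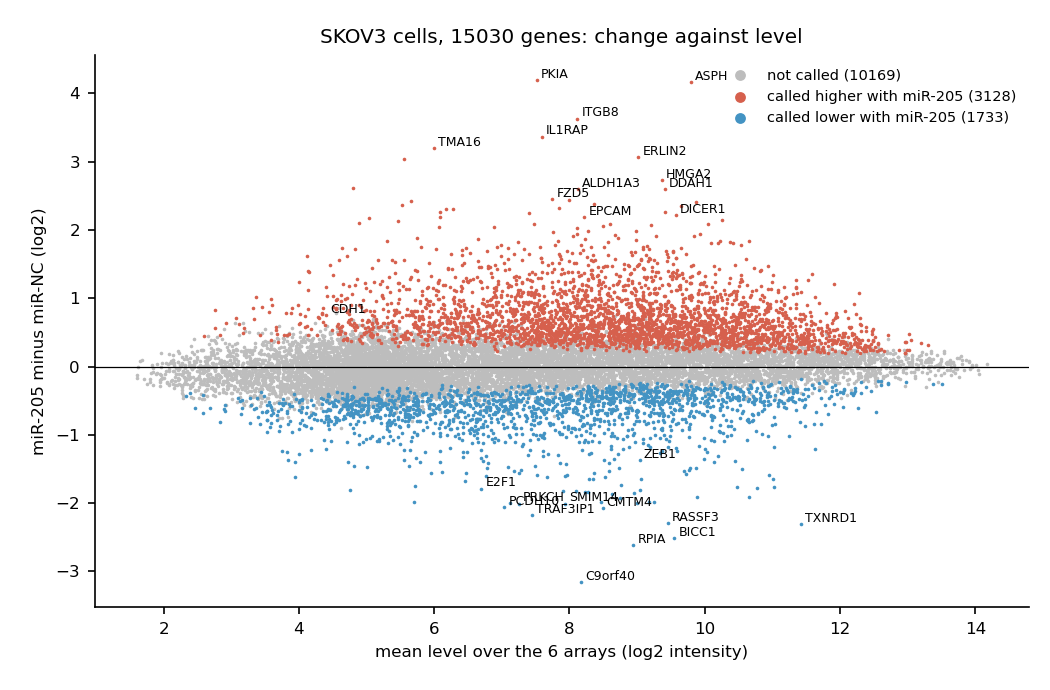
Difference between miR-205 and miR-NC (log2) against mean level (log2 intensity) for the 15030 genes, 1 point per gene; red points were called higher (3128), blue ones lower (1733) and grey ones not called. PKIA and ASPH lie at the top at about 4.2, C9orf40 at the bottom at -3.16, and ZEB1 and E2F1 lie among the falls.

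The 10 genes with the largest falls were also lower with miR-205 than with miR-203a and with miR-429. C9orf40, a gene of unassigned function, had 6.63, 6.40 and 6.74 in the miR-205 arrays, against 9.73, 9.71 and 9.80 in the miR-NC arrays. It fell by 3.16 ± 0.13 log2 units (SE; adjusted p = 5.57e-17), and its other probe set fell too, by 2.23. RPIA encodes ribose-5-phosphate isomerase of the pentose phosphate pathway. Its levels were 7.68, 7.48 and 7.73 in the miR-205 arrays, against 10.33, 10.05 and 10.38 in the miR-NC arrays, a fall of 2.62 ± 0.11 (adjusted p = 1.02e-16). TXNRD1, the cytosolic thioredoxin reductase, stood at 10.42, 10.11 and 10.26 in the miR-205 arrays, against 12.58, 12.55 and 12.59 in the miR-NC arrays, a fall of 2.31 ± 0.11 (adjusted p = 7.44e-16). BICC1, an RNA-binding protein gene, had 8.47, 8.42 and 7.99 in the miR-205 arrays, against 10.75, 10.81 and 10.85 in the miR-NC arrays. It fell by 2.51 ± 0.13, with adjusted p = 4.28e-15, or by 1.64 when its 2 probe sets were averaged. RASSF3, a Ras-association domain gene, showed 8.45, 8.13 and 8.35 in the miR-205 arrays, against 10.56, 10.51 and 10.73 in the miR-NC arrays, and all 3 of its probe sets were called lower (-2.29 ± 0.10 on the one used, adjusted p = 5.57e-17, and -1.15 without possible cross-hybridising ones).

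The other 5 of these falls ranged from -2.17 for TRAF3IP1, which encodes a protein of ciliary transport, to -2.01 for SMIM14. Between them were CMTM4 at -2.08, the protocadherin gene PCDH10 at -2.06 and PRKCH, the protein kinase C eta gene, at -2.01. PRKCH had 6.35, 6.10 and 6.29 in the miR-205 arrays, against 8.37, 8.27 and 8.12 in the miR-NC arrays, and fell by 1.28 with averaged probe sets. Lack of overlap between the miR-205 and miR-NC arrays was a condition for choosing the 10, and 53.8% of all genes met it. Against miR-203a the 10 genes differed by -2.95 to -1.16, and against miR-429 by -3.17 to -0.73, called lower in 10 of 10 both times. Over all genes, 12.6% were called lower with miR-205 than with miR-203a and 12.4% lower than with miR-429 (19.4% and 12.7% higher).

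In each of the 10 largest rises the miR-NC mean was the lowest of the 4 SKOV3 groups. PKIA, an inhibitor of protein kinase A, had 9.54, 9.72 and 9.58 in the miR-205 arrays, against 5.12, 5.69 and 5.45 in the miR-NC arrays. It rose by 4.19 ± 0.13 (adjusted p = 2.36e-20), and its group means were 8.56 with miR-203a and 7.03 with miR-429. ASPH, aspartate beta-hydroxylase, stood at 11.93, 12.02 and 11.68 in the miR-205 arrays, against 8.03, 7.26 and 7.84 in the miR-NC arrays. The rise was 4.17 ± 0.15 (adjusted p = 2.06e-18), against 1.17 when its 9 probe sets were averaged, and the difference from miR-429 was 0.02 (adjusted p = 0.949). ITGB8, an integrin subunit that binds latent TGF-beta, had 9.95, 10.12 and 9.72 in the miR-205 arrays, against 6.35, 6.05 and 6.49 in the miR-NC arrays. Its rise of 3.63 ± 0.20 (adjusted p = 1.7e-14; 1.44 with averaged probe sets) compares with differences of 0.41 from miR-203a and -0.15 from miR-429, neither of them called. HMGA2, a chromatin protein of embryonic and tumour cells, had 10.70, 10.62 and 10.87 in the miR-205 arrays, against 8.17, 8.0 and 7.82 in the miR-NC arrays, a rise of 2.73 ± 0.10 (adjusted p = 4.11e-18). It was also higher than with miR-203a by 2.55 and than with miR-429 by 2.32. The average of its 9 probe sets rose by 0.46, but most of the others lay below background in both groups. Without possible cross-hybridisation the rise was 0.53, on a dim probe set at 5.87 with miR-205 and 5.34 with miR-NC.

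IL1RAP, the accessory chain of the interleukin-1 receptor, had 9.35, 9.24 and 9.24 in the miR-205 arrays, against 5.90, 5.16 and 6.66 in the miR-NC arrays, the widest spread among the control arrays of these genes. It rose by 3.37 ± 0.27 (adjusted p = 4.78e-11; 1.89 with averaged probe sets) and was 1.96 above miR-203a and 1.80 above miR-429. TMA16 rose by 3.19 ± 0.19, with a miR-NC mean of 4.39 near background. ALDH1A3, a retinoic acid-forming dehydrogenase, and DDAH1, which breaks down methylated arginine, both rose by 2.60, DDAH1 by 1.09 with averaged probe sets. ERLIN2 (3.07) and FZD5 (2.45), a Wnt receptor, rested on probe sets that may cross-hybridise. With those left out the difference was -0.16 for ERLIN2 and 0.09 for FZD5, and neither was called. The ERLIN2 probe set that remained was below background with miR-205 (3.67) and miR-NC (3.84), and that of FZD5 near it (5.15 and 5.06). Another ERLIN2 probe set, which may also cross-hybridise, rose by 1.98. With averaged probe sets ERLIN2 rose by 1.63 and FZD5 by 1.27. Of the 10 genes, 7 were called higher with miR-205 than with miR-203a and 6 higher than with miR-429.

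**Figure D2:**
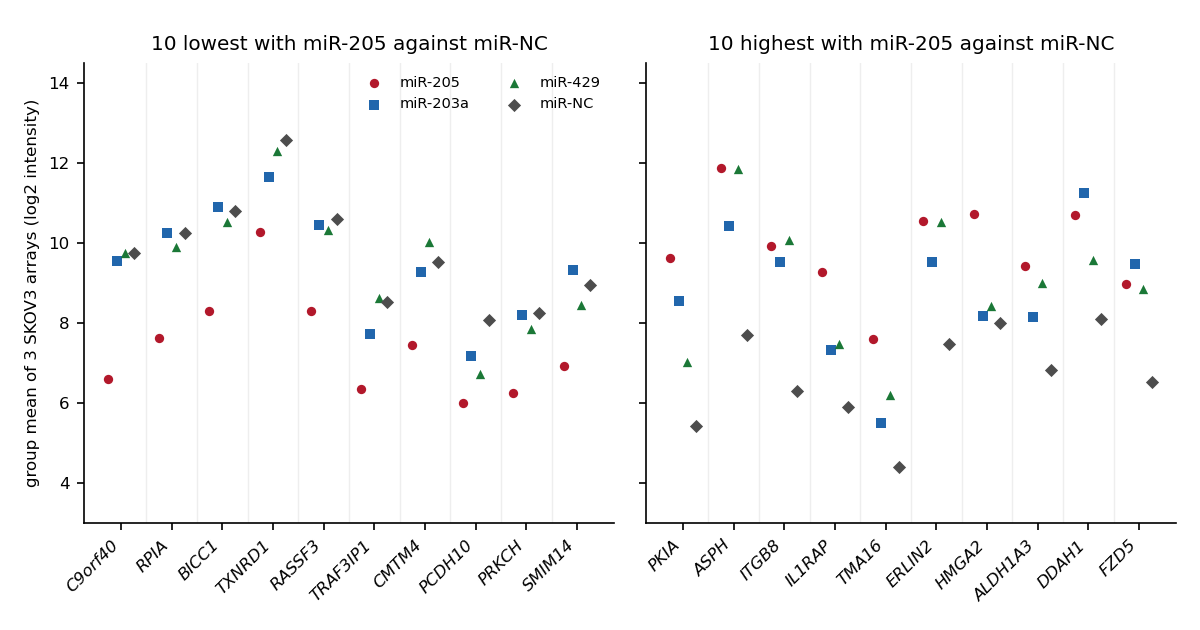
Group means of 3 arrays (log2 intensity) in SKOV3 cells with miR-205, miR-203a, miR-429 and miR-NC for the 10 genes with the largest falls (left) and rises (right). In the falls the miR-205 point lies alone at the bottom, 2.95 below miR-203a for C9orf40, while in the rises the miR-NC point is the lowest, and the miR-205 mean of HMGA2 stands 2.32 above the next highest group.

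Genes with differences of at least 2-fold were sorted by which SKOV3 group stood apart. Of the 211 that were lower, 93 (44.1%) had a miR-205 mean at least 1 log2 unit below the means with miR-203a, miR-429 and miR-NC alike, and in 3 (1.42%) the miR-NC mean stood that far from the 3 miRNA means. Of the 574 that were higher, 51 (8.89%) had a miR-205 mean that far above the 3 others, and in 81 (14.1%) the miR-NC mean lay that far below the 3 miRNA means, with 3 genes in both counts. These 81 include PKIA, ASPH, ITGB8, IL1RAP, DICER1, IRS1, ITGA6, TJP1, PKP2, TGFBR1 and NT5E. The 93 include C9orf40, RPIA, BICC1, TXNRD1, RASSF3, PRKCH, E2F1, CDKN2D, PRKCE, CCNE2, TP53INP1 and SEL1L. These comparisons share the miR-205 arrays, so they are values side by side and no independent evidence. Some of these genes had other probe sets above background, 189 for 107 lower genes and 724 for 375 higher ones. At least 1 of them was called in the same direction for 81.3% of those lower genes (87) and 69.6% of those higher genes (261). The other probe sets had a median difference of -0.84 for the lower genes and 0.54 for the higher ones. An opposite call on at least 1 other probe set was found for 3.74% of those lower genes and 4.27% of those higher ones.

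Of 13 genes that define the epithelial and mesenchymal states, 4 were higher (30.8%), 1 was lower (7.69%) and 8 were not called. Of all genes 20.8% were higher and 11.5% lower. ZEB1, the repressor of epithelial genes and a known miR-205 target, had 8.42, 8.13 and 8.49 in the miR-205 arrays, against 9.76, 9.65 and 9.76 in the miR-NC arrays. It fell by 1.37 ± 0.10 (adjusted p = 5.32e-12), or to 0.39 of the miR-NC level on the linear scale, and 2 of its 3 other probe sets were called lower as well. EPCAM, an epithelial surface adhesion protein, stood at 9.19, 9.39 and 9.35 in the miR-205 arrays, against 6.54, 7.46 and 7.37 in the miR-NC arrays. It rose by 2.19 ± 0.20 (adjusted p = 9.76e-10), with no overlap between the groups. CDH1 was at or near background in all 6 arrays, 4.62, 4.81 and 4.90 with miR-205, against 4.12, 3.94 and 4.02 with miR-NC. Its rise of 0.75 ± 0.24 (adjusted p = 0.0166) was lost with all 45 arrays in the fit (adjusted p = 0.255) and in 2 of 6 fits without 1 array.

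None of the mesenchymal members other than ZEB1 was called lower on the probe set used. SNAI2, which encodes the repressor Slug, rose, with 11.09, 11.24 and 11.19 in the miR-205 arrays, against 10.16, 10.05 and 10.26 in the miR-NC arrays, by 1.02 ± 0.13 (adjusted p = 3.66e-07). CDH2, N-cadherin, also rose, by 0.69 ± 0.11 (adjusted p = 9.31e-06), and stood at 11.74, 12.01 and 11.67 with miR-205, against 11.12, 11.08 and 11.15 with miR-NC. VIM, the intermediate filament vimentin, had 13.68, 13.74 and 13.63 with miR-205, against 13.80, 13.85 and 13.86 with miR-NC. That difference, -0.15 ± 0.13, was not called, at a level among the brightest on the array where differences may be compressed. The groups did not overlap, its dimmer probe set was lower by 0.92 (adjusted p = 0.0143), and the average of its 2 probe sets was lower by 0.53 (adjusted p = 0.0197). FN1, fibronectin, differed by 0.01 ± 0.11 and TWIST1 by 0.08 ± 0.10, neither called. ZEB2 (-0.10), the splicing regulator ESRP1 (-0.32), RAB25 (0.03) and OVOL1 (0.49) lay near background in both groups and were not called, nor was SNAI1 (-0.09).

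**Figure D3:**
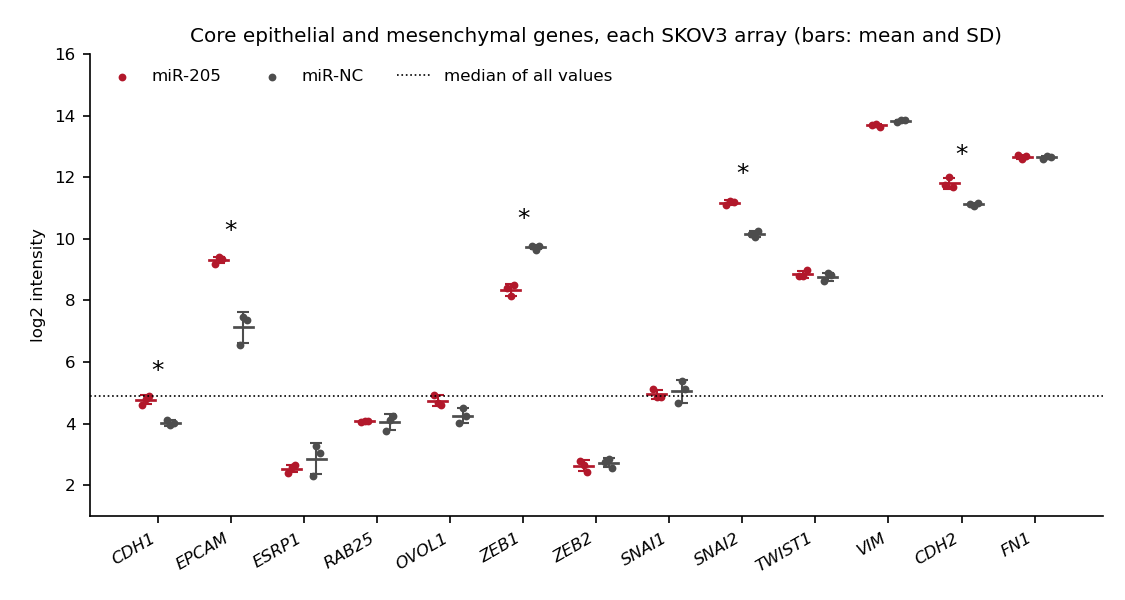
Log2 intensity of the 13 core genes in each of the 6 arrays, miR-205 in red on the left and miR-NC in grey on the right of each pair; lines and bars are the mean and SD of 3 arrays, the dotted line is the median of all values (4.88) and a star marks a call. ZEB1 is separated downward and EPCAM, SNAI2 and CDH2 upward, CDH1 lies at or below the dotted line, and the VIM arrays lie near the top in both groups.

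Against miR-429, 3 of the 13 core genes were lower and 3 higher. Over all genes, 12.4% were lower with miR-205 than with miR-429 and 12.7% higher. CDH1 was lower with miR-205 than with miR-429 by 3.81 log2 units (adjusted p = 3.52e-13), EPCAM by 2.22 (adjusted p = 7.93e-10), and ZEB1 was higher by 0.78 (adjusted p = 3.83e-07). ESRP1 differed by -0.62 (adjusted p = 0.00283), but its mean with miR-205 was 2.54, below the median of all values. RAB25 (0.10) and OVOL1 (0.30) were not called. FN1 was higher by 1.70 (adjusted p = 3.76e-13) and SNAI2 by 0.95 (adjusted p = 1.6e-06). Over the lists, 2 of 21 epithelial regulators were higher with miR-205 than with miR-429 and 12 were lower, with a median of -0.68. Of 38 mesenchymal genes 19 were higher and 0 lower by limma, 1 lower at an unadjusted p below 0.05, with a median of 0.41. Against miR-203a the epithelial regulators split 4 higher and 3 lower, and the mesenchymal genes 15 higher and 3 lower. Of all genes, 19.4% were higher and 12.6% lower than with miR-203a.

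Of the 21 epithelial regulators 6 were higher and 2 lower against miR-NC, 28.6% and 9.52% beside 20.8% and 11.5% of all genes, with a median of 0.031 beside 0.028. Without possible cross-hybridising probe sets, 2 were higher and 2 lower. KLF5, a transcription factor of simple and basal epithelia, had 11.14, 11.34 and 10.80 in the miR-205 arrays, against 8.81, 9.07 and 9.14 in the miR-NC arrays. It rose by 2.09 ± 0.20 (adjusted p = 1.21e-09; 1.34 with averaged probe sets). KLF4, a related factor, rose by 1.10 ± 0.15 (adjusted p = 5.76e-07), and MAL2, a protein of apical transport, by 1.21 ± 0.17 (adjusted p = 9.61e-07). The 2 that fell, GRHL1 (-0.78 ± 0.19) and ERBB3 (-0.95 ± 0.21), were near background in both groups. Of 8 keratins 4 were higher and 1 was lower (median 0.42), with KRT19 at 0.92 ± 0.25 and KRT7 at 0.80 ± 0.15 the largest rises and KRT14, a basal keratin, at -0.91 ± 0.24. With averaged probe sets KRT19 rose by 0.53 and KRT7 was not called. KRT7 changed sign to -0.32 without probe sets that may cross-hybridise, and KRT8 (0.44) lost its call in every fit without 1 array.

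Junction genes were called higher in 13 of 35 cases and lower in 2, 37.1% and 5.71% beside 20.8% and 11.5% of all genes. PKP2 and PKP3 encode desmosomal plakophilins. PKP3 had 9.56, 9.80 and 9.61 in the miR-205 arrays, against 8.33, 8.06 and 8.31 in the miR-NC arrays, a rise of 1.42 ± 0.18 (adjusted p = 4.29e-07) that its other probe set shared. PKP2 rose by 1.66 ± 0.18, while its other probe set differed by -0.01. TJP1, which encodes the tight-junction scaffold ZO-1, stood at 11.71, 11.60 and 11.73 in the miR-205 arrays, against 10.28, 10.40 and 10.32 in the miR-NC arrays. It rose by 1.35 ± 0.10 (adjusted p = 5.53e-12), but differed from miR-203a by 0.22 and from miR-429 by 0.03, neither called. CTNNB1, beta-catenin, rose by 1.21 ± 0.11, NECTIN2 by 1.17 ± 0.11 and NECTIN3 by 1.08 ± 0.15. PKP2 rose by 0.83 and CTNNB1 by 0.72 with averaged probe sets. Against miR-203a 8 of the 35 were higher and 6 lower, and against miR-429 1 was higher and 13 were lower. Of all genes, 19.4% were higher and 12.6% lower against miR-203a, and 12.7% and 12.4% against miR-429.

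Mesenchymal genes were higher in 12 of 38 cases and lower in 2 (31.6% and 5.26%, beside 20.8% and 11.5% of all genes), with a median of 0.059. NT5E, the ecto-enzyme CD73, had 10.91, 10.93 and 10.92 in the miR-205 arrays, against 9.51, 9.48 and 9.48 in the miR-NC arrays, a rise of 1.43 ± 0.14 (adjusted p = 1.4e-09), or of 0.68 with averaged probe sets. TNC, the matrix protein tenascin-C, rose by 1.25 ± 0.16, but the average of its 3 probe sets, higher by 0.29, was not called. ACTA2, smooth-muscle actin, rose by 1.02 ± 0.18 and LOXL2, a collagen-crosslinking enzyme, by 0.86 ± 0.11, or by 0.29 with averaged probe sets. COL1A1 (0.86 ± 0.26) lost its call with all 45 arrays (adjusted p = 0.237) and when its probe sets were averaged. The list held 6 higher and 2 lower with all 45 arrays, and 6 and 6 with averaged probe sets. Fibroblast markers were below the median of all values in 5 of 9 cases in both groups, LUM and PDGFRA among them, and their average level was 4.68 to 4.78 in the miR-205 arrays and 4.62 to 4.81 in the miR-NC arrays. Of 14 transcription factors of the epithelial to mesenchymal transition 3 were higher and 3 lower (21.4% each, beside 20.8% and 11.5% of all genes). The higher ones were SOX9 (1.75 ± 0.18), SNAI2 and ETS1 (0.64 ± 0.12). The lower ones were ZEB1, SOX4 (-0.59 ± 0.17) and TCF4 (-0.46 ± 0.13, with miR-205 near background). SOX9, which specifies cartilage and several epithelia, had 6.79, 6.67 and 6.60 in the miR-205 arrays, against 5.02, 4.88 and 4.90 in the miR-NC arrays. TCF4 was lower by 0.29 without miR-205 replicate 2, where it was not called. With averaged probe sets neither TCF4 (-0.12) nor ETS1 (0.21, adjusted p = 0.148) was called.

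Of 31 genes reported elsewhere as miR-205 targets, 10 were lower (32.3%, beside 11.5% of all genes) and 6 were higher (19.4%, beside 20.8%), with a median of -0.054. E2F1, the transcription factor that starts DNA synthesis, had 5.51, 5.88 and 6.02 in the miR-205 arrays, against 7.70, 7.44 and 7.63 in the miR-NC arrays. It fell by 1.79 ± 0.20 (adjusted p = 3.67e-08), and its other probe set by 1.63. PRKCE, protein kinase C epsilon, stood at 5.77, 5.72 and 6.11 in the miR-205 arrays, against 7.11, 7.06 and 7.16 in the miR-NC arrays, a fall of 1.25 ± 0.13 (adjusted p = 1.14e-08), with -0.43 as the average of 3 probe sets. LYN, a Src-family kinase, had 6.69, 6.94 and 6.79 in the miR-205 arrays, against 7.91, 7.99 and 8.18 in the miR-NC arrays. All 3 of its probe sets were lower, the one used by 1.22 (adjusted p = 4.78e-09). INPPL1, the lipid phosphatase SHIP2 that limits AKT signalling, showed 9.13, 8.76 and 8.88 with miR-205, against 9.58, 9.90 and 10.0 with miR-NC, a fall of 0.90 ± 0.15 (adjusted p = 1.41e-05).

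E2F5 fell by 0.74 ± 0.10, the small GTPase gene RAP2B by 0.68 ± 0.12, with all 4 of its probe sets lower, the condensin gene NCAPG by 0.48 ± 0.09 and TM9SF2 by 0.46 ± 0.09. NCAPG lost its call with all 45 arrays (adjusted p = 0.579). ERBB3, a receptor that pairs with ERBB2, was lower on the array by 0.95 ± 0.21 but near background in both groups. MED1, a Mediator subunit, missed the threshold on the probe set used (-0.46 ± 0.18, adjusted p = 0.0502), while its 3 other probe sets were called lower, by 0.55 to 1.07. The 6 called higher were SMAD1 (1.09), YES1 (0.66), DDX5 (0.61), TMEM201 (0.55), SMAD4 (0.51) and CCN1 (0.42). With averaged probe sets the list stood at 13 lower and 2 higher. SMAD1, TMEM201, SMAD4 and CCN1 were not called there, and SMAD4 also lost its call in 5 of 6 fits without 1 array and turned to -0.48 (adjusted p = 0.0145) without possible cross-hybridising probe sets, where YES1 rose by 0.37. RAP2B fell by 1.16 with averaged probe sets. ERBB2 (0.26 ± 0.12), VEGFA (0.29 ± 0.13), SRC (0.04 ± 0.23), YAP1 (0.23 ± 0.11) and ITGA5 (0.03 ± 0.17) were not called. All 15 uncalled targets lay between -0.47 and 0.29.

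**Figure D4:**
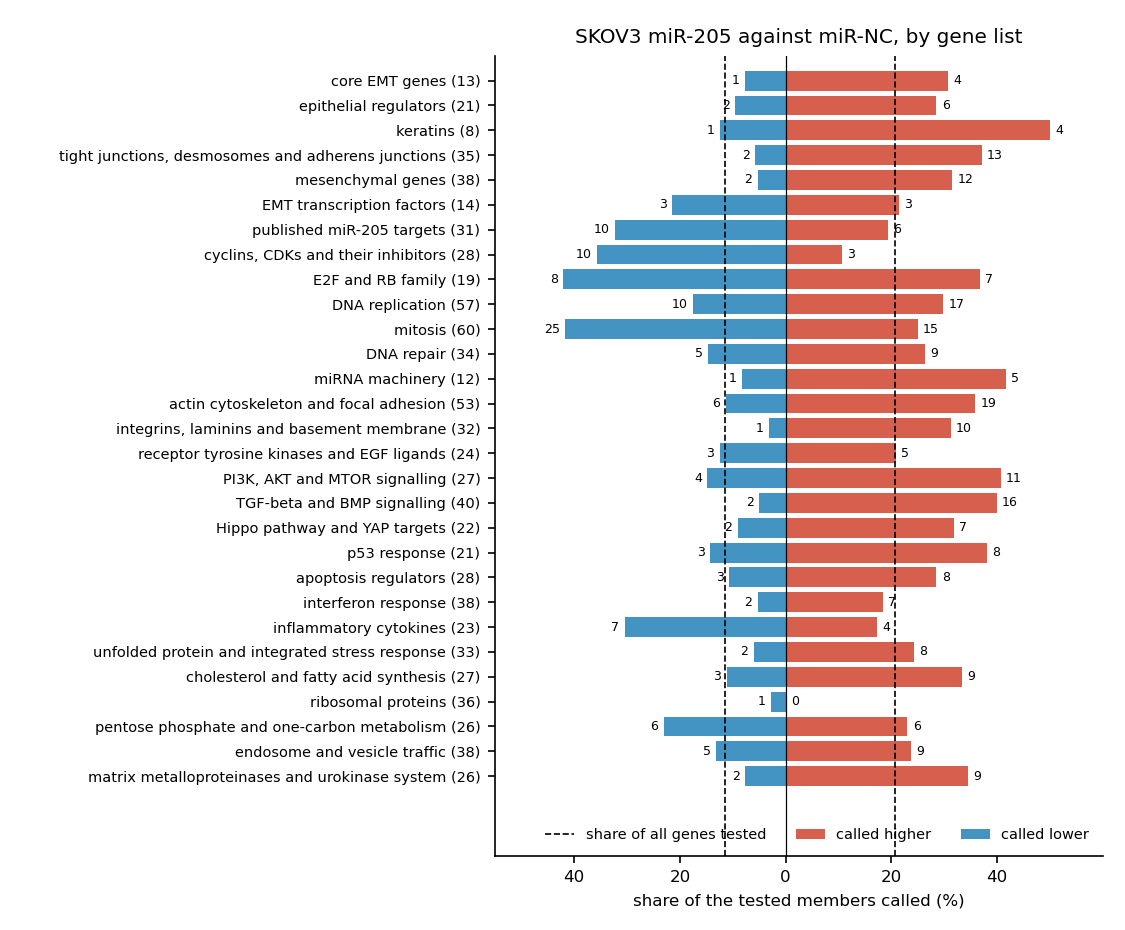
Share of the tested members of each gene list called higher (red, to the right) and lower (blue, to the left) with miR-205 against miR-NC, in percent, with the number called at the end of each bar and the number tested in parentheses; dashed lines mark the shares over all genes, 20.8% and 11.5%. Bars reach furthest to the left for the E2F and RB family (8 of 19), mitosis (25 of 60), cyclins and CDKs (10 of 28) and published targets (10 of 31), and ribosomal proteins stand near 0 on both sides.

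Of 28 cyclins, cyclin-dependent kinases (CDKs) and their inhibitors 10 were lower (35.7%) and 3 higher (10.7%), beside 11.5% and 20.8% of all genes. The counts were 7 and 2 with all 45 arrays and 6 and 2 without possible cross-hybridising probe sets. CCNE1 and CCNE2 encode the E cyclins that carry cells into DNA synthesis. CCNE1 had 8.66, 8.44 and 8.69 in the miR-205 arrays, against 9.78, 9.62 and 9.82 in the miR-NC arrays, a fall of 1.14 ± 0.13 (adjusted p = 4.11e-08). CCNE2 fell by 1.07 ± 0.18 and its other probe set by 1.59, though the call was lost with all 45 arrays (adjusted p = 0.187). CDK6, a partner of D cyclins, stood at 10.29, 10.16 and 10.25 with miR-205, against 11.07, 10.85 and 11.11 with miR-NC and fell by 0.78 ± 0.11 (adjusted p = 2.16e-06), or by 0.35 with averaged probe sets. Inhibitors were also among the falls: CDKN2D by 1.48 ± 0.21 and CDKN1A, which encodes p21 and was chosen after its values were seen, by 0.67 ± 0.12. SKP2, the ubiquitin ligase subunit that marks p27 for destruction, rose by 0.91 ± 0.10 (adjusted p = 8.98e-09).

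Of 19 members of the E2F and RB family, which switch S-phase genes on and off, 8 were lower (42.1%) and 7 higher (36.8%). Beside this, 11.5% of all genes were lower and 20.8% higher. The family counts were 5 and 6 with all 45 arrays. E2F2, an activator like E2F1, was lower at -0.81 ± 0.19, or at -0.33 with averaged probe sets. The pocket protein genes RB1 (0.77 ± 0.14) and RBL1 (1.33 ± 0.15) and the repressor E2F6 (0.90 ± 0.13) were higher. RBL1 had 7.76, 7.82 and 8.03 in the miR-205 arrays, against 6.19, 6.60 and 6.81 in the miR-NC arrays. Its 2 other probe sets were not called, and with averaged probe sets RBL1 rose by 0.56 and RB1 was not called. E2F1 was lower than with miR-203a by 1.73 and than with miR-429 by 2.29, and RBL1 was higher than with miR-203a by 1.24 and than with miR-429 by 0.96.

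**Figure D5:**
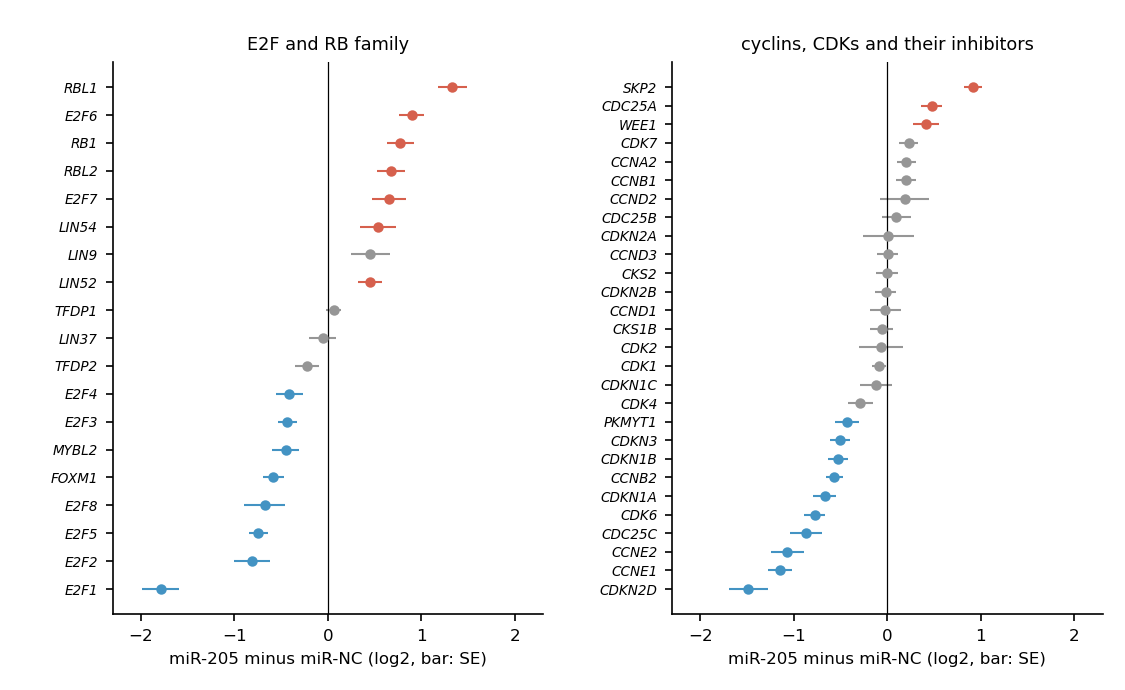
Difference between miR-205 and miR-NC (log2) with its SE for the 19 members of the E2F and RB family (left) and the 28 cyclins, CDKs and their inhibitors (right); red was called higher, blue lower and grey not called. E2F1 at -1.79 is the lowest on the left and RBL1 at 1.33 the highest, and CDKN2D, CCNE1 and CCNE2 form the low end on the right.

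Mitotic genes were lower in 25 of 60 cases (41.7%) and higher in 15 (25.0%), beside 11.5% and 20.8% of all genes, with a median of -0.22. PLK1, the kinase that drives mitotic entry, had 7.39, 7.81 and 7.57 in the miR-205 arrays, against 8.57, 8.73 and 8.53 in the miR-NC arrays, a fall of 1.02 ± 0.14 (adjusted p = 1.55e-06). INCENP of the chromosomal passenger complex fell by 0.88 ± 0.23. Among the rises, CENPH, a kinetochore protein, had 10.27, 10.40 and 10.19 in the miR-205 arrays, against 8.81, 8.64 and 9.18 in the miR-NC arrays, higher by 1.41 ± 0.20 (adjusted p = 1.84e-06). PLK4, the kinase of centriole duplication, rose by 1.26 ± 0.22, MAD2L1 by 1.02 ± 0.11 and KIF14 by 0.97 ± 0.15. With averaged probe sets PLK4 rose by 0.58 and MAD2L1 by 0.46, and without possible cross-hybridising ones the MAD2L1 difference was 0.04 (adjusted p = 0.929). With all 45 arrays in the fit, which changes the SE but no difference, 2 mitotic genes were lower and 2 higher. MAD2L1 (adjusted p = 0.0912) and KIF14 (adjusted p = 0.121) were not called there. Against miR-429 the list had 36 members lower and 0 higher by limma, 1 higher at an unadjusted p below 0.05. Against miR-203a it had 23 lower and 13 higher. Of all genes, 12.4% were lower and 12.7% higher against miR-429, and 12.6% and 19.4% against miR-203a.

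DNA replication genes split into 17 higher (29.8%) and 10 lower (17.5%) of 57, beside 20.8% and 11.5% of all genes. The split was 5 and 2 with all 45 arrays and 10 and 12 after quantile normalization. RRM2, the subunit of ribonucleotide reductase that limits deoxynucleotide supply, fell by 1.01 ± 0.10 (adjusted p = 4.86e-09, but 0.297 with all 45 arrays), and stood at 10.61, 10.30 and 10.39 with miR-205, against 11.53, 11.27 and 11.54 with miR-NC. MCM6 of the replicative helicase fell by 0.72 ± 0.10, DSCC1 of a clamp loader by 0.83 ± 0.14 and the histone chaperone gene ASF1B by 0.92 ± 0.17 (adjusted p = 0.0712 with all 45 arrays). PRIM2, a primase subunit, rose by 1.08 ± 0.18 and ORC5 of the origin recognition complex by 0.95 ± 0.09. Of 34 DNA repair genes 9 were higher (26.5%) and 5 lower (14.7%), or 7 and 3 with all 45 arrays. BRIP1, a helicase of crosslink repair, rose by 1.29 ± 0.11 (adjusted p = 2.89e-10). XRCC4 of end joining rose by 1.51 ± 0.16, or by 0.44 without possible cross-hybridising probe sets, where it was not called. FANCF fell by 0.75 ± 0.09.

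Genes for ribose and one-carbon supply were higher in 6 of 26 cases and lower in 6 (23.1% each, beside 20.8% and 11.5% of all genes). Beside the fall of RPIA, PRPS2, which makes the ribose donor of nucleotides, rose by 1.03 ± 0.14 and PSPH of serine synthesis by 1.21 ± 0.13 (adjusted p = 8.61e-09), or by 0.61 and 0.52 with averaged probe sets. PPAT, which commits ribose to purines, rose by 0.96 ± 0.12 on the probe set used but stood at -0.70 without possible cross-hybridising ones.

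Of 12 genes that make and use miRNAs 5 were higher (41.7%) and 1 was lower (8.33%), beside 20.8% and 11.5% of all genes. With averaged probe sets 7 were higher and 1 lower. DICER1, the enzyme that cuts miRNA precursors, had 10.70, 10.63 and 10.70 in the miR-205 arrays, against 8.54, 8.41 and 8.42 in the miR-NC arrays. It rose by 2.22 ± 0.14 (adjusted p = 2.77e-13), or by 1.09 when its 5 probe sets were averaged. The miR-203a mean was 9.64 and the miR-429 mean 10.25, so miR-NC was the lowest of the 4. TNRC6A, an Argonaute partner in silencing, stood at 10.99, 10.95 and 11.04 in the miR-205 arrays, against 9.38, 9.38 and 8.78 in the miR-NC arrays, a rise of 1.81 ± 0.12 (adjusted p = 2.35e-12), or of 0.75 with averaged probe sets. AGO2, the Argonaute that cuts transcripts, rose by 0.83 ± 0.13, AGO4 by 0.59 ± 0.12 and TNRC6B by 0.77 ± 0.12, while TNRC6C fell by 0.77 ± 0.22. TNRC6B rose by 0.50 and TNRC6C fell by 0.32 with averaged probe sets. AGO2 was also higher than with miR-203a (1.08) and miR-429 (0.85).

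Of 32 integrins, laminins and basement membrane genes 10 were higher (31.2%) and 1 lower (3.12%), beside 20.8% and 11.5% of all genes. ITGA6, a laminin receptor subunit, had 10.84, 10.83 and 10.73 in the miR-205 arrays, against 8.60, 8.98 and 9.11 in the miR-NC arrays. It rose by 1.91 ± 0.12 (adjusted p = 3.62e-13), as did its other probe set, by 1.66. ITGA2, a collagen receptor subunit, rose by 1.05 ± 0.14 (0.56 with averaged probe sets), and the laminin chains LAMB1 and LAMB3 by 1.03 ± 0.11 and 1.0 ± 0.11. ITGA4 rose by 1.37 ± 0.17, with miR-NC near background. Of 53 genes of the actin cytoskeleton and focal adhesions 19 were higher (35.8%) and 6 lower (11.3%), but 7 and 9 without possible cross-hybridising probe sets. WASF3, which promotes branched actin, had 10.37, 10.38 and 10.37 in the miR-205 arrays, against 8.60, 8.87 and 8.87 in the miR-NC arrays, a rise of 1.59 ± 0.16 (adjusted p = 5.9e-09). RDX, which links actin to the membrane, rose by 1.27 ± 0.12, PTK2, focal adhesion kinase, by 1.08 ± 0.10 and RHOB by 1.06 ± 0.12. PTK2 rose by 0.58 and RHOB by 0.61 with averaged probe sets. CFL2 (1.16) and PARVA (1.01) were not called when their probe sets were averaged.

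Matrix proteases and the urokinase system were higher in 9 of 26 cases (34.6%) and lower in 2 (7.69%), beside 20.8% and 11.5% of all genes. MMP1, interstitial collagenase, stood at 10.91, 11.36 and 11.06 in the miR-205 arrays, against 8.87, 9.71 and 9.31 in the miR-NC arrays, a rise of 1.81 ± 0.22 (adjusted p = 1.68e-07). MMP10, stromelysin-2, had 7.83, 8.27 and 8.15 in the miR-205 arrays, against 6.39, 6.70 and 6.49 in the miR-NC arrays, a rise of 1.56 ± 0.22 (adjusted p = 1.47e-06). Both were at least 1.5 log2 units higher than with miR-203a and miR-429 as well. ADAM12 rose by 1.25 ± 0.18, ADAM17, which sheds growth factor ligands, by 1.01 ± 0.13 and MMP16 by 1.13 ± 0.13, or by 0.70 with averaged probe sets. TIMP3, an inhibitor of these enzymes, rose by 0.67 ± 0.25, a call lost in every fit without 1 array.

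Growth factor receptors and EGF ligands were called in 8 of 24 cases, 5 higher (20.8%) and 3 lower (12.5%), near the 20.8% and 11.5% of all genes. IGF1R, the receptor of insulin-like growth factors, had 8.53, 8.76 and 8.31 in the miR-205 arrays, against 7.27, 7.21 and 7.5 in the miR-NC arrays, a rise of 1.21 ± 0.12 (adjusted p = 1.79e-09), and MET, the hepatocyte growth factor receptor, rose by 0.51 ± 0.09, a call lost with averaged probe sets. TGFA, an EGF receptor ligand, fell by 0.60 ± 0.11. NRG1, a ligand of ERBB3, rose by 1.06 ± 0.24 on 1 of 5 probe sets. In PI3K, AKT and MTOR signalling 11 of 27 genes were higher (40.7%) and 4 lower (14.8%). IRS1, the adaptor between insulin receptors and PI3K, had 8.99, 9.07 and 8.97 in the miR-205 arrays, against 7.25, 6.85 and 7.18 in the miR-NC arrays, a rise of 1.92 ± 0.09 (adjusted p = 8.18e-16), and all 3 of its probe sets rose. DEPTOR, an inhibitor of MTOR, rose by 1.76 ± 0.26, SGK1 by 1.33 ± 0.14, PDPK1 by 1.07 ± 0.10 (0.35 with averaged probe sets) and RPS6KB1 by 0.85 ± 0.12. With miR-203a and miR-429 the IRS1 means were 8.14 and 8.86, with 7.09 in miR-NC.

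TGF-beta and BMP signalling held 16 higher and 2 lower of 40, with a median of 0.26. Among its rises were receptors: ACVR1 by 1.54 ± 0.15, TGFBR1 by 1.38 ± 0.13, ACVR2A by 1.11 ± 0.10 and BMPR2 by 1.04 ± 0.11. ACVR1 had 10.17, 10.21 and 10.27 in the miR-205 arrays, against 8.5, 8.53 and 8.98 in the miR-NC arrays (adjusted p = 2.05e-09). TGFBR1 stood at 10.36, 10.23 and 10.19 with miR-205, against 8.62, 9.01 and 9.02 with miR-NC (adjusted p = 1.24e-09), but at 0.30 without possible cross-hybridising probe sets, where it was not called. ACVR2A rose by 0.45 and TGFBR1 by 0.78 with averaged probe sets. SMAD1 rose on 1 of 3 probe sets, and NOG, a secreted BMP antagonist, rose by 1.03 ± 0.11, with miR-NC near background. In the Hippo pathway 7 of 22 genes were higher (31.8%) and 2 lower (9.09%), or 8 and 0 with averaged probe sets. MOB1B and MOB1A, activators of the LATS kinases, rose by 1.51 ± 0.15 and 1.06 ± 0.14, LATS1 by 1.25 ± 0.15 (0.62 with averaged probe sets) and the YAP target CCN2 by 1.06 ± 0.15. WWC1, which encodes KIBRA, fell by 0.91 ± 0.11, a call lost without possible cross-hybridising probe sets (-0.04).

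Of 21 genes of the p53 response 8 were higher (38.1%) and 3 lower (14.3%), beside 20.8% and 11.5% of all genes. The counts were 8 and 5 after quantile normalization and 6 and 5 with averaged probe sets. TP53INP1, a stress-induced partner of p53, had 7.19, 7.18 and 7.21 in the miR-205 arrays, against 8.68, 9.26 and 9.11 in the miR-NC arrays, a fall of 1.82 ± 0.13 (adjusted p = 3.03e-12), with -1.17 as the average of its probe sets. CCNG1, a direct p53 target, fell by 0.81 ± 0.10. FAS, the death receptor, stood at 8.71, 8.24 and 8.51 in the miR-205 arrays, against 7.08, 6.90 and 7.19 in the miR-NC arrays, a rise of 1.43 ± 0.13 (adjusted p = 4.61e-10) that all 5 of its probe sets shared (0.56 without possible cross-hybridising ones), and ZMAT3 rose by 1.31 ± 0.11 on all 5 of its own. CDKN1A was the other one lower. MDM2 rose by 0.80 ± 0.14 but was not called when its probe sets were averaged. Apoptosis regulators were higher in 8 of 28 cases (28.6%) and lower in 3 (10.7%), or 4 and 5 after quantile normalization. XIAP, a caspase inhibitor, rose by 0.83 ± 0.17 (0.45 with averaged probe sets) and BAK1, which opens mitochondria, by 0.61 ± 0.16, while BIRC5, which encodes survivin, fell by 0.44 ± 0.11 (adjusted p = 0.561 with all 45 arrays).

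Inflammatory cytokines were lower in 7 of 23 cases (30.4%) and higher in 4 (17.4%). CXCL2, a neutrophil chemokine, had 7.60, 7.81 and 7.72 in the miR-205 arrays, against 9.05, 9.79 and 9.14 in the miR-NC arrays, a fall of 1.62 ± 0.14 (adjusted p = 1.94e-10) that its other probe set, at -0.22, did not share. CSF1, the macrophage growth factor, fell by 1.41 ± 0.18 (adjusted p = 3.51e-07) on all 3 of its probe sets, CXCL1 by 0.94 ± 0.12 and CXCL3 by 0.69 ± 0.12. IL18, a cytokine of the interleukin-1 family, had 9.51, 9.67 and 9.49 in the miR-205 arrays, against 6.58, 7.54 and 7.41 in the miR-NC arrays, a rise of 2.38 ± 0.15 (adjusted p = 3.55e-13). The miR-203a and miR-429 means of IL18 were 8.28 and 9.40. LIF rose by 0.87 ± 0.12. Interferon-response genes numbered 7 higher (18.4%) and 2 lower (5.26%) of 38, beside 20.8% and 11.5% of all genes. After quantile normalization they numbered 4 and 4. DTX3L, a ubiquitin ligase, was at 1.66 ± 0.12 and SAMD9L at -0.996 ± 0.18.

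In the unfolded protein response and the integrated stress response 8 of 33 genes were higher (24.2%) and 2 lower (6.06%). Of all genes 20.8% were higher and 11.5% lower. After quantile normalization the list stood at 4 and 4. SEL1L, the scaffold of endoplasmic-reticulum-associated degradation, had 7.31, 7.20 and 7.43 in the miR-205 arrays, against 9.04, 9.20 and 9.21 in the miR-NC arrays, a fall of 1.83 ± 0.15 (adjusted p = 4.54e-11), and its 3 other probe sets were lower too, with an average of -0.98 over all 4. DNAJB9, a chaperone induced by that stress, rose by 1.09 ± 0.11 and EIF2AK3, the sensor PERK, by 0.86 ± 0.18. Sterol and fatty acid synthesis held 9 higher (33.3%) and 3 lower (11.1%) of 27, or 5 and 2 with averaged probe sets. SQLE, squalene epoxidase, fell by 0.99 ± 0.11 (adjusted p = 2.06e-08) and INSIG1 by 0.57 ± 0.10, each on all its probe sets, while NSDHL rose by 1.10 ± 0.12 (0.70 averaged) and ELOVL6 by 0.81 ± 0.18. In endosome and vesicle traffic 9 of 38 were higher (23.7%) and 5 lower (13.2%), near the shares of all genes. RAB8B was at 1.35 ± 0.19 and RAB27A, of exosome and granule release, at -1.07 ± 0.11 (-0.62 averaged). Of 36 ribosomal protein genes 1 was lower by limma, RPL14 (-0.25 ± 0.08, a call lost without possible cross-hybridising probe sets), and 0 were higher, 1 at an unadjusted p below 0.05. Of markers of ovarian and Mullerian epithelium, 7 tested, SOX17 rose by 0.72 ± 0.18 and WT1 by 0.67 ± 0.12 (0.37 averaged), and MECOM fell by 1.02 ± 0.11.

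The responses to miR-205 in HEY, another ovarian carcinoma line, and in PC3, labelled a prostate carcinoma line, come from separate arrays. The SKOV3 response differed from that of HEY in 65.0% of the genes and from that of PC3 in 49.4%. Calls within those lines were many: 35.4% of all genes were higher and 35.0% lower in HEY, and 31.4% higher and 23.4% lower in PC3. The part that their GAPDH 5′ difference and the levels of the B. subtilis controls, given above, have in these shares was not tested. Of the 211 genes at least 2-fold lower in SKOV3, 135 (64.0%) were lower in HEY and 135 (64.0%) in PC3. Of the 574 at least 2-fold higher, 116 (20.2%) were higher and 308 (53.7%) lower in HEY, and 219 (38.2%) were higher and 86 lower in PC3.

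Of the 10 largest falls, 9 were called lower in HEY and 10 in PC3. C9orf40 differed by -2.29 in HEY and -2.16 in PC3, RPIA by -1.96 and -1.30, and BICC1 by -2.62 and -1.75. PCDH10 was the one without a call in HEY (0.28). ZEB1 was lower in all 3 lines, by 1.81 in HEY and by 0.98 in PC3. LYN, TP53INP1 and CDK6 were lower in all 3 as well: LYN (-1.40 and -0.74), TP53INP1 (-2.05 and -1.40) and CDK6 (-1.01 and -0.88). E2F1 differed by -0.38 in HEY, not called, and by -0.50 in PC3. Of the 10 largest rises 5 were called higher in HEY and 9 in PC3, and HMGA2 was lower in HEY (-0.54) and not called in PC3 (-0.09). DICER1 was lower in HEY (-0.87), and MMP1 was higher in both (1.68 and 1.96).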

How the data were processed

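Expression of 54675 probe sets was read on 1-colour Affymetrix arrays, 3 per group, after 3′ amplification and biotin labelling. The deposited values are log2 intensities made by the authors with RMA, per the submitters' processing notes; the RMA version and which arrays were normalized together are not given in the sources used here. Nothing was renormalized. Platform annotation gave 1 symbol to 41091 probe sets, several to 1801 and none to 11721, beside 62 controls; a gene was its brightest single-symbol probe set whose highest group mean exceeded the median of all values (4.88). Group means were fitted in limma 3.58.1 (R 4.3.3) with eBayes over the 36 transfected arrays in 12 groups (24 residual degrees of freedom, 4.36 prior), tested two-sided and adjusted over 15030 genes by Benjamini-Hochberg at 0.05. Errors beside differences are SE from that fit. The 9 arrays labelled untransfected stayed out. With 3 arrays a group an exact permutation test of 1 gene cannot go below p = 0.1, and precision is set by how few arrays there are. In a test on simulated data for this comparison, 90 of 100 changes of 1 log2 unit, 30 of 100 of 0.5 and 6 of 14830 unchanged genes were called. Far fewer genes were changed there than the 4861 called in the data. The adjustment was therefore stricter, and these shares do not give the power of the real comparison. Same-numbered arrays of the 2 groups were checked for shared deviations and are not paired. Alternatives were other sets of arrays, scalings, filters and probe set rules, a trended prior, a replicate block and each array left out.

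The groups, gene lists and fit were chosen with earlier results of these data known. Named genes are the 10 largest falls and rises whose arrays do not overlap and whose higher mean exceeds the 75th percentile of all values, every core gene and tested published target, up to 6 called members with the largest differences of each other list, and the markers; others are said to be chosen after their values were seen. Tables were made in Python 3.11.15 with numpy 2.4.6, pandas 2.3.3 and matplotlib 3.10.9.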

Additional observations from a re-analysis of the deposited data

Results flagged for a closer look

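The response to miR-205 of 10 core genes differed between SKOV3 and another line in the test of the difference itself (limma, adjusted over all genes). EPCAM rose more in SKOV3 than in HEY, by 1.84 ± 0.29 log2 units (SE), and than in PC3, by 1.49 ± 0.29. SNAI2, higher in SKOV3, differed from HEY by 1.46 and from PC3 by 1.34, with responses of -0.44 in HEY and -0.32 in PC3. TWIST1 differed from HEY by 1.89, where it was lower by 1.81, and from PC3 by 0.34. CDH2 differed by 0.82 from HEY and 0.44 from PC3. VIM differed by -1.51 from HEY and -0.996 from PC3, but its SKOV3 levels, 13.69 with miR-205 and 13.84 with miR-NC, lie among the brightest on the array, where differences may be compressed, and the sizes cannot be read as differences of response. ZEB1 was lower in all 3 lines, with a difference of 0.44 from HEY and -0.40 from PC3. From HEY alone, ZEB2 differed by 1.81, ESRP1 by 1.20, OVOL1 by 0.71 and FN1 by -0.41. The adjusted p of these differences ranged from 1.33e-12 for TWIST1 to 0.043 for OVOL1, both against HEY. ZEB2, ESRP1 and OVOL1 were near background in both SKOV3 groups. The GAPDH 5′ probe set also differed between the groups in HEY (12.28 with miR-205, 8.37 with miR-NC) and in PC3 (8.70 and 5.04). At the 3′ end the means were 13.76 and 12.28 in HEY, and 12.14 and 10.32 in PC3. The part of this gap between transcript ends in the differences of response was not tested.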

How the results depend on the processing

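The 4861 calls became 4023 with all 45 arrays, 6250 with the 12 transfected SKOV3 arrays, 6168 with the 6 arrays alone and 3959 to 4226 without 1 array (2591 to 2822 higher, 1332 to 1428 lower), and 785 with a further demand of a 2-fold difference. Same-numbered arrays did not deviate together (r of 0.020, 0.075 and -0.025), and a replicate block within each line gave 4760 calls. Of 231 named genes 191 were called, and 138 of them were called in every setting in which they were tested. Calls lost numbered 25 with averaged probe sets, 19 with all 45 arrays, 13 without possible cross-hybridising probe sets and 5 after quantile normalization. Direction reversed, from a called rise, with averaged probe sets for ERN1 (-0.12) and SMAD4 (-0.035). Without possible cross-hybridising probe sets it reversed for ERLIN2 (-0.16, below background in both groups), KRT7 (-0.32), PPAT (-0.70) and SMAD4 (-0.48). Of genes not called, RUNX2 turned to -0.29 (adjusted p = 0.0220) and TEK, near background, to 0.54 with averaged probe sets. Both settings change which probe sets stand for a gene; the cause was not tested. Genes near the median of all values have the least signal over background, CDH1 among them.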

Other observations

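Beyond the lists, several genes stood apart with miR-205 from all 3 other SKOV3 groups; those named here were chosen after their values were seen. SERPINB5, which encodes the serpin maspin of basal epithelial cells, averaged 8.74 with miR-205, 6.60 with miR-203a, 7.58 with miR-429 and 6.76 with miR-NC, a rise of 1.98 ± 0.25 over miR-NC (SE, limma adjusted p = 2.17e-07). CLU, the secreted chaperone clusterin, averaged 8.52 with miR-205 and 6.43 with miR-NC, and STMN3, a stathmin-family microtubule regulator, 8.53 and 6.28. On the other side, TRIM44 averaged 7.99 with miR-205 and 10.0 with miR-NC, PSIP1, which encodes the chromatin protein LEDGF, 8.94 and 10.8, and the cell adhesion gene CADM1 8.18 and 10.2.

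The miR-NC arrays stood apart for HMOX1, heme oxygenase, also chosen after its values were seen, which averaged 9.44 with miR-205, 9.73 with miR-203a and 7.69 with miR-429, against 10.8 with miR-NC.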
